A study of Mus musculus with 145 samples.

Results

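Transcripts of 9 genes whose proteins are mostly made in the liver were followed across the series: the plasma carriers Alb, Ttr and Ambp, the apolipoproteins Apoa1, Apoa2 and Apob, the fibrinogen chains Fga and Fgb, and the enzyme Tdo2. They are 9 of 19752 genes with a probe set of a single symbol. The members were selected on their level in medullary thymic epithelium, so their height there, and every difference with a high medullary group on 1 side (GFP+ included), is a description and is not tested. Each gene was read by its single-symbol probe set with the highest mean over all arrays; 8 of the 9 have 1 such probe set and Fga has 2. The series measured sorted mouse cells of 65 groups on Affymetrix arrays: 22 arrays in 10 groups are thymic epithelium, 6 arrays in 2 groups are liver macrophages and 117 arrays in 53 groups are other cells. The other cells give the medians used below and are not all resting cells of normal mice. By title they include Gata6 knockout and control peritoneal macrophages (mice of 9 weeks) and Tbet- T cells. They also include cells titled LCMV, LisOVA or CFA, timed T cell series and embryonic thymocytes. All values below are linear intensities per array or log2 differences between groups, and the number of arrays limits their precision.

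Of the thymic groups, 7 came from male C57BL/6 mice of 5 or 8 weeks. Their titles name cortical (CEC) or medullary (MEC) cells, the suffix hi or lo, or Sca1+. The sorting label is the same for all 7 (EpCAM+, Ly51+, MHCII+, Sca1+), so the subset rests on the title alone. The other 3 groups, from mice of 5 weeks and mixed sex, were sorted as CD45-, Ly51- cells with high MHCII and split by GFP: GFP+, GFP- and GFP+ titled KO. The labels name neither the gene that was knocked out nor what drives GFP. The liver macrophages, from male C57BL/6 mice of 6 weeks, were CD45+, CD64+ and Mertk+ with F4/80 high (480hi) or, by title, intermediate (480int). Each group held 2 or 3 arrays, except the high medullary group at 5 weeks with 1. Nothing states that replicates came from separate animals, so each p-value rests on array-to-array spread, which may be technical.

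As background, medullary thymic epithelial cells transcribe many genes that are otherwise restricted to single organs. Developing T cells that bind the resulting self peptides strongly are deleted or become regulatory T cells. The nuclear protein Aire drives part of this transcription, mainly in the cells with high MHC class II. In hepatocytes the same genes are transcribed at very high rates under factors such as HNF4 and C/EBP proteins.

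Array medians lay between 124.2 and 146.7 over the 28 thymic and liver arrays, and arrays of a group correlated at r of 0.983 to 0.9946 across probe sets. Markers separated the high groups. Aire averaged 4082 in the high medullary group at 8 weeks and 279.8 in the low one, and the cortical protease gene Psmb11 averaged 3571 in the high cortical group and 111.2 in the high medullary one. Aire was at 3605, 5203 and 4457 on the GFP+ arrays, at 3894, 4039 and 4387 on the KO arrays and at 570.4, 772.3 and 495.3 on the GFP- arrays; GFP+ and KO overlapped. The titles of the low and Sca1+ groups were not as clear: Psmb11 averaged 258.7 in Sca1+ cortical and 344.8 in low medullary cells of 8 weeks, and the sum of 8 cortical markers was 11905 to 12256 and 12404 to 13366. The medullary keratin Krt5 averaged 1622 in high medullary, 2035 in high cortical and 4733 in low medullary cells of 8 weeks. The liver macrophage arrays held the Kupffer cell genes Clec4f, Vsig4 and Cd5l, and also the endothelial genes Cdh5 (10298 and 9235 in 480hi and 480int) and Stab2 (2584 and 5434).

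Alb, which encodes the main carrier protein of blood plasma, was at 216.0 and 246.4 on the high medullary arrays at 8 weeks and at 129.7 on the single one at 5 weeks. It was at 31.1 and 31.6 on the high cortical arrays and at 31 and 26.4 on the low medullary arrays of 8 weeks, close to the median of 34.1 over the 53 groups that are neither thymic epithelium nor liver macrophage. The GFP+ arrays were at 191.1, 211.6 and 247.6, the GFP- arrays averaged 104.1 ± 36.2 (SD, n = 3), and the KO arrays at 26.9, 29.9 and 29.5. These 3 groups did not overlap, and KO lay at the level of the low medullary cells. The liver macrophages, at 4269 ± 660.8 (480int) and 4847 ± 492.7 (480hi; SD, n = 3 each), were far above all thymic groups.

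Ttr, the carrier of thyroid hormone and of retinol-binding protein, was at 346.6 and 263.9 in the high medullary group at 8 weeks and at 41.7 and 33.5 in the high cortical group. All 9 arrays of the 4 high medullary groups without KO lay above every one of the 117 arrays outside thymic epithelium and liver macrophages, of which the highest was at 76.0. Unlike Alb, Ttr was highest among the GFP-sorted groups in GFP- cells, at 430.3, 393.4 and 330.3, against 180.1, 160.1 and 289.8 in GFP+ and 104.9, 139.5 and 83.3 in KO. Ambp, which encodes the common precursor of alpha-1-microglobulin and bikunin, was at 103.7 and 102.8 in high and at 85.0 and 75.1 in low medullary cells of 8 weeks. On the GFP+ arrays Ambp reached 138.3, 125.8 and 148.4, with GFP- at 68.0, 86.8 and 72.0 and KO at 50.3, 53 and 52.2. Ambp was therefore the member with the smallest step between high and low medullary cells of 8 weeks, among those above the other groups there. Its high medullary array of 5 weeks (84.1) and its GFP- mean (75.6) lay below fat eosinophils (titled EO.AT, 1 array, at 86).

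**Figure D1:**
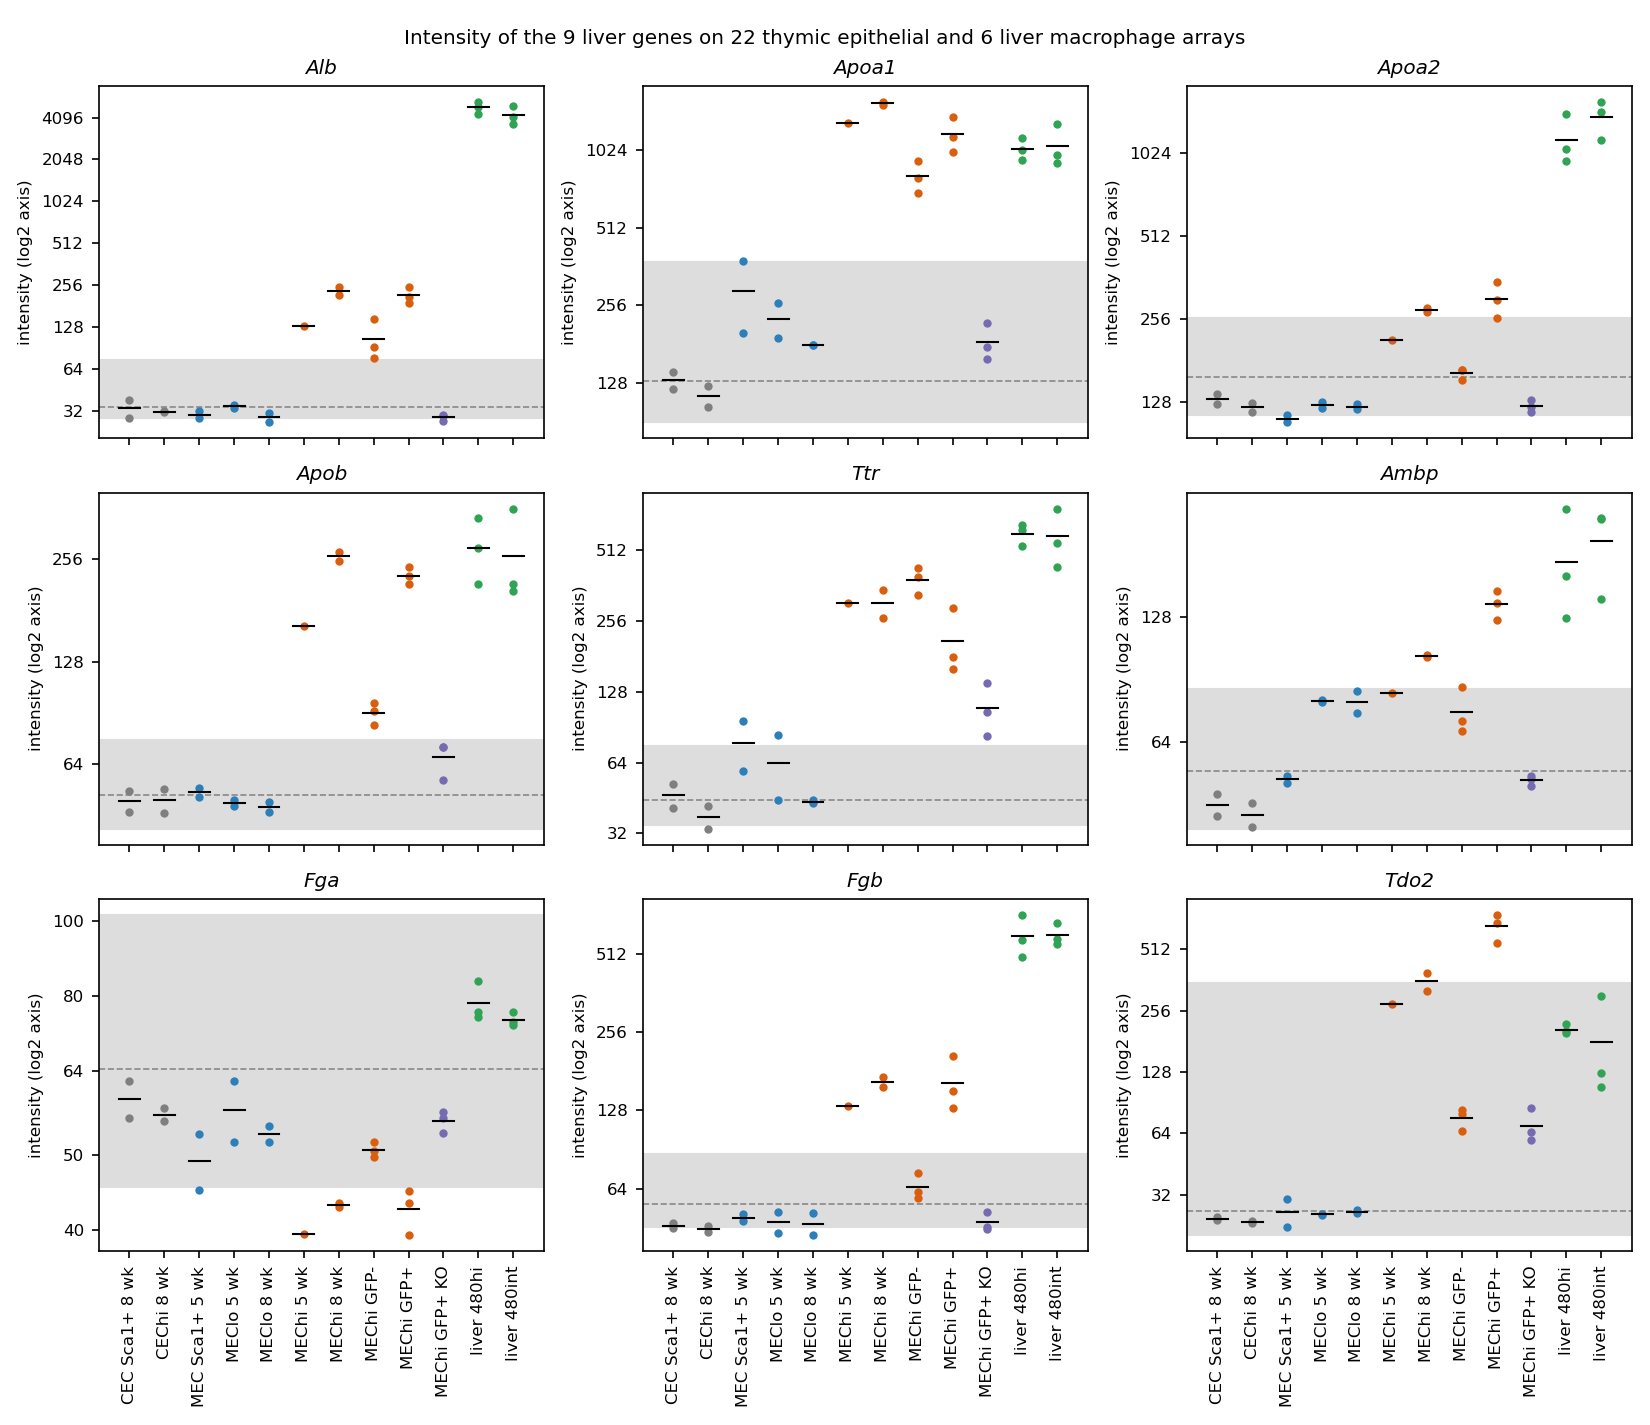
Intensity (log2 axis) of each gene on the 22 thymic epithelial and 6 liver macrophage arrays; points are arrays, black bars are group means, the grey band spans the means of the 53 other groups and the dashed line is their median. Alb, Apoa1, Apob, Fgb and Tdo2 stand high in the high medullary groups and low in KO, Ttr is highest in GFP- among the GFP-sorted groups, and Fga lies below the dashed line in all thymic groups.

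Among the apolipoproteins, Apoa1, the main protein of high-density lipoprotein, was at 1574 and 1538 in high medullary, 179.9 and 179.2 in low medullary and 124.2 and 103.4 in high cortical cells of 8 weeks. It was at 1010.0, 1155 and 1375 in GFP+, 699.7, 928.9 and 801.4 in GFP- and 176.0, 218.3 and 158.0 in KO. For this gene the high medullary group at 8 weeks (1556 ± 25.4, SD, n = 2) stood first of all 65 groups, and its arrays did not overlap with those of the liver macrophages, at 1035 ± 99.9 and 1061 ± 201.6 (SD, n = 3 each). The GFP+ arrays overlapped with the liver macrophages.

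Apob, the structural protein of chylomicrons and very-low-density lipoprotein, was at 252.0 and 269.1 in high medullary and at 46.2 and 49.4 in low medullary cells of 8 weeks. GFP+ arrays were at 242.2, 228.1 and 216.0, GFP- arrays at 91.6, 97.0 and 83.3, and KO arrays at 71.8, 71.9 and 57.3. Its liver macrophage arrays, between 206.2 and 360.4, overlapped with both the high medullary and the GFP+ arrays. Apoa2, a second protein of high-density lipoprotein, was at 269.6 and 278.7 in high medullary cells of 8 weeks and at 299.6, 256.1 and 346.2 in GFP+. The GFP- arrays, at 167.1, 166.6 and 152.7, lay near the median of the other groups (157.5), and KO, at 122.2, 129.2 and 117.6, lay below it. Cells other than epithelium also came close to this level: tongue mast cells (titled MC.To, 1 array) were at 256.8.

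Fgb, the beta chain of the clotting protein fibrinogen, was at 172.0 and 157.2 in high medullary and at 51.6 and 42.4 in low medullary cells of 8 weeks. It was at 130.2, 152.0 and 206.7 in GFP+, 58.8, 73.3 and 62.4 in GFP- and 51.9, 44.9 and 45.7 in KO. Fga, the alpha chain, went against the name of the group. Its level was 42.8 and 43.3 in high medullary cells of 8 weeks and 42.5 ± 2.80 in GFP+ (SD, n = 3), which put GFP+ at place 64 of 65 groups. The second Fga probe set gave 54.8 ± 3.02 (SD, n = 2) in high medullary cells of 8 weeks and 44.7 ± 0.0366 in low ones (SD, n = 2), against a median of 56.0 over the other groups, so neither probe set stood above other cells there. In liver macrophages the second probe set was at 91.5 ± 11.7 and 99.6 ± 10 (SD, n = 3 each), above the highest of the 53 other groups (82.4).

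Tdo2, the enzyme that opens the ring of tryptophan in the first step of its breakdown in liver, was at 320.1 and 392.3 in high medullary, 26.0 and 26.9 in low medullary and 23.8 and 23.4 in high cortical cells of 8 weeks. GFP+ arrays, at 546.7, 686.5 and 752.2, formed the highest of the 65 groups for this gene and lay above all arrays of the next, with GFP- at 83.1, 79.3 and 66.1 and KO at 64.7, 85.2 and 59.4. Tdo2 was not restricted to epithelium and liver: peritoneal macrophages with high F4/80 averaged 350.5 in the control and 340.1 in the Gata6 knockout group.

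The fold over the median of the 53 other groups was computed on the log2 scale. In GFP+ it was 24.6 for Tdo2, 8.99 for Apoa1, 6.32 for Alb, 4.58 for Ttr, 4.41 for Apob, 2.86 for Fgb, 2.53 for Ambp, 1.90 for Apoa2 and 0.660 for Fga. In KO only Tdo2 (2.58) and Ttr (2.41) stayed at 2-fold or more, and the other 7 lay between 0.781 and 1.40. In all, 7 of 9 members were at 2-fold or more in GFP+, 6 in high medullary cells of 8 weeks, 4 in GFP- and 0 in low medullary or high cortical cells of 8 weeks. Of all 19752 genes, 14.7%, 15.2%, 12.8%, 12.4% and 10.9% reached this in the same groups, and since the members were selected on these levels nothing is read from the difference.

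The contrast that matches the choice of members, high medullary against high cortical cells at 8 weeks, gave log2 differences of 3.91 ± 0.16 for Tdo2, 3.78 ± 0.26 for Apoa1, 3.02 ± 0.29 for Ttr, 2.88 ± 0.16 for Alb, 2.39 ± 0.13 for Apob, 1.87 ± 0.14 for Fgb, 1.27 ± 0.13 for Ambp, 1.17 ± 0.12 for Apoa2 and -0.39 ± 0.14 for Fga (SE, n = 2 per group). High against low medullary cells, which use the same high arrays, gave 3.74 ± 0.16 for Tdo2, 3.12 ± 0.26 for Apoa1, 3.01 ± 0.16 for Alb, 2.79 ± 0.29 for Ttr, 2.45 ± 0.13 for Apob, 1.81 ± 0.14 for Fgb, 1.16 ± 0.12 for Apoa2, 0.37 ± 0.13 for Ambp and -0.31 ± 0.14 for Fga (SE, n = 2 per group). Both sets of values are given with no test. The members whose low medullary and high cortical levels were alike give nearly the same number in both contrasts, whereas Ambp was higher in low medullary (80.1 ± 7.00) than in high cortical cells (42.9 ± 4.00; SD, n = 2 each) without overlap.

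The GFP split divides cells of the high medullary gate, and the members did not all lie on the same side of it. The log2 difference of GFP+ from GFP- was 3.11 ± 0.16 for Tdo2, 1.34 ± 0.11 for Apob, 1.31 ± 0.16 for Fgb, 1.10 ± 0.20 for Alb, 0.88 ± 0.12 for Apoa2, 0.87 ± 0.11 for Ambp, 0.54 ± 0.16 for Apoa1, -0.26 ± 0.09 for Fga and -0.91 ± 0.23 for Ttr (SE, n = 3 per group, limma fit without filter). Ttr was thus the 1 member with a high medullary level whose GFP- cells stood above its GFP+ cells. The median difference was 0.88 over the members and -0.02 over all probe sets.

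The GFP+ KO arrays are set against the GFP+ control arrays, which are the same arrays as in the split above. Here the log2 difference was -3.25 ± 0.16 for Tdo2, -2.91 ± 0.20 for Alb, -2.68 ± 0.16 for Apoa1, -1.78 ± 0.11 for Apob, -1.75 ± 0.16 for Fgb, -1.40 ± 0.11 for Ambp, -1.28 ± 0.12 for Apoa2, -0.93 ± 0.23 for Ttr and 0.38 ± 0.09 for Fga (SE, n = 3 per group). The median was -1.75 over the members and 0.05 over all probe sets. Both sets of values are given with no test, because the members were selected on medullary levels that include these arrays. In a bulk sample, fewer cells with a transcript and less transcript per cell cannot be told apart.

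The probe sets of Fga disagree on direction. Its second probe set gave 0.16 ± 0.08 for GFP+ against GFP- and -0.11 ± 0.08 for KO against GFP+ (SE, n = 3 per group), where the first gave -0.26 and 0.38. For high against low medullary cells of 8 weeks it gave 0.29 ± 0.13 (SE, n = 2 per group), where the first gave -0.31.

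**Figure D2:**
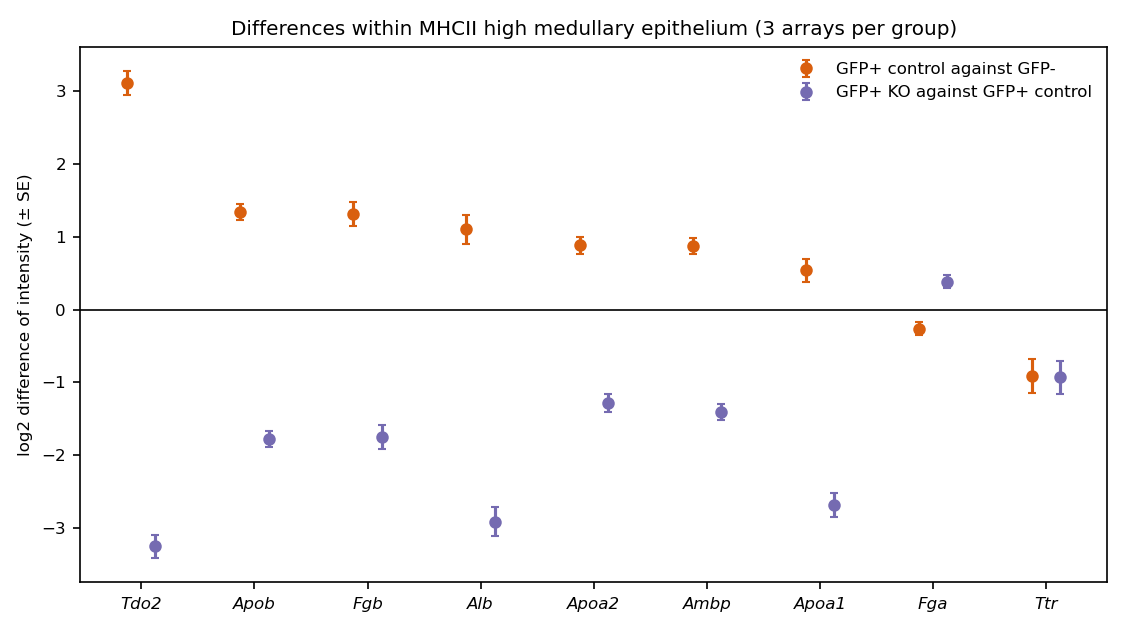
Log2 difference of intensity (± SE, limma fit without filter, 3 arrays per group) for the 9 genes, GFP+ control against GFP- in orange and GFP+ KO against GFP+ control in purple; both use the same GFP+ control arrays. Tdo2 has the largest value in each (3.11 and -3.25), and Ttr is below 0 in both (-0.91 and -0.93).

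Markers of other cells moved with these groups. The summed intensity of 5 Kupffer cell markers was 341.3 to 378.7 in GFP+, 251.4 to 269.6 in KO and 237.2 to 280.3 in GFP-, against 17889 to 27849 in the liver macrophages. Of the 5, Vsig4 was at 19.3, 18.4 and 15.6 in GFP+, KO and GFP-, below its median of 23.2 in the other groups. Timd4 and Marco also lay below their medians in GFP+. Clec4f, at 146.2, 83.2 and 91.1, and Cd5l, at 51.3, 30 and 32, lay above theirs in GFP+ (104.7 and 39.7). The sum of 5 general macrophage markers was 877.2 to 978.2 in GFP+, 583.6 to 756.4 in KO and 587.7 to 934.7 in GFP-, and Adgre1 within it was at 176.0, 40.8 and 36.3. The sum of 5 fibroblast markers was 4150 to 4380 in KO, 2383 to 2707 in GFP+ and 1756 to 2120 in GFP-, mostly from Dcn. Their part in the members' differences was not tested.

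A wider list of 58 hepatocyte genes, of which 52 have a probe set of a single symbol, was read beside the members. Without filter, limma called 25 of 52 higher in GFP+ than in GFP- and 4 lower (Hp, Apoc1, Ttpa and Cyp8b1), where 20.1% of all probe sets were called higher and 16.2% lower. It called 30 lower and 1 higher in KO than in GFP+, where 10.3% were called lower and 7.08% higher. These p-values are adjusted over all probe sets by Benjamini-Hochberg. The median difference over the list was 0.35 and -0.47. The fibrinogen gamma chain Fgg was higher in GFP+ than GFP- by 2.67 ± 0.14 (SE, limma adjusted p = 5.1e-07) and fell with KO by 3.12 ± 0.14 (6.8e-08). Gys2, the glycogen synthase of liver, was higher by 2.16 ± 0.17 (limma adjusted p = 5.1e-06) and fell by 3.17 ± 0.17 (2.4e-07), and the inter-alpha-trypsin inhibitor gene Itih4 and the kininogen gene Kng1 were called in the same directions.

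Some liver genes with high levels in medullary cells were not called with KO, while Trf was called lower. Hamp, which encodes the iron hormone hepcidin, averaged 2407 in GFP+ and 1922 in KO (-0.35 ± 0.18, limma adjusted p = 0.21), and the antithrombin gene Serpinc1, named after its values were seen, averaged 334.8 and 273.0 (-0.29 ± 0.22, adjusted p = 0.39). Trf, the iron carrier transferrin, fell by 0.55 ± 0.12 (limma adjusted p = 0.0089; 0.15 in a fit of all arrays), from 1483 to 1015. The 1 gene called higher was Itih1, of the same family as Itih4 (0.44 ± 0.11, limma adjusted p = 0.016), which lost its call without KO replicate 3 (0.061) or GFP+ replicate 6 (0.052).

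Several members lie beside other genes of the list in the genome. On chromosome 3 the fibrinogen genes stand in the order Fgg, Fga, Fgb, with 11.1 and 8.6 kb between them, and Fga was the one of the 3 that was not raised in medullary cells: Fgg averaged 238.5 and Fgb 164.6 in high medullary cells of 8 weeks, and 28.1 and 47.5 in KO. Next to Apoa1 on chromosome 9, at 2.6 and 10.4 kb, lie Apoc3, an inhibitor of lipoprotein lipase, and Apoa4, an apolipoprotein also made by the gut. Apoc3 averaged 827.4 in GFP-, 675.7 in GFP+ and 295.8 in KO, and Apoa4 averaged 1366, 2364 and 709.2. Both fell with KO, by 1.24 ± 0.22 (limma adjusted p = 0.0025) and 1.77 ± 0.17 (2.2e-05). Afp, the fetal albumin-like protein encoded 14.1 kb from Alb on chromosome 5, stayed at 69.3 in GFP+ and 49.7 in KO, against a median of 64 over the other groups. Distances are from RefSeq gene records of GRCm38.p6.

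**Figure D3:**
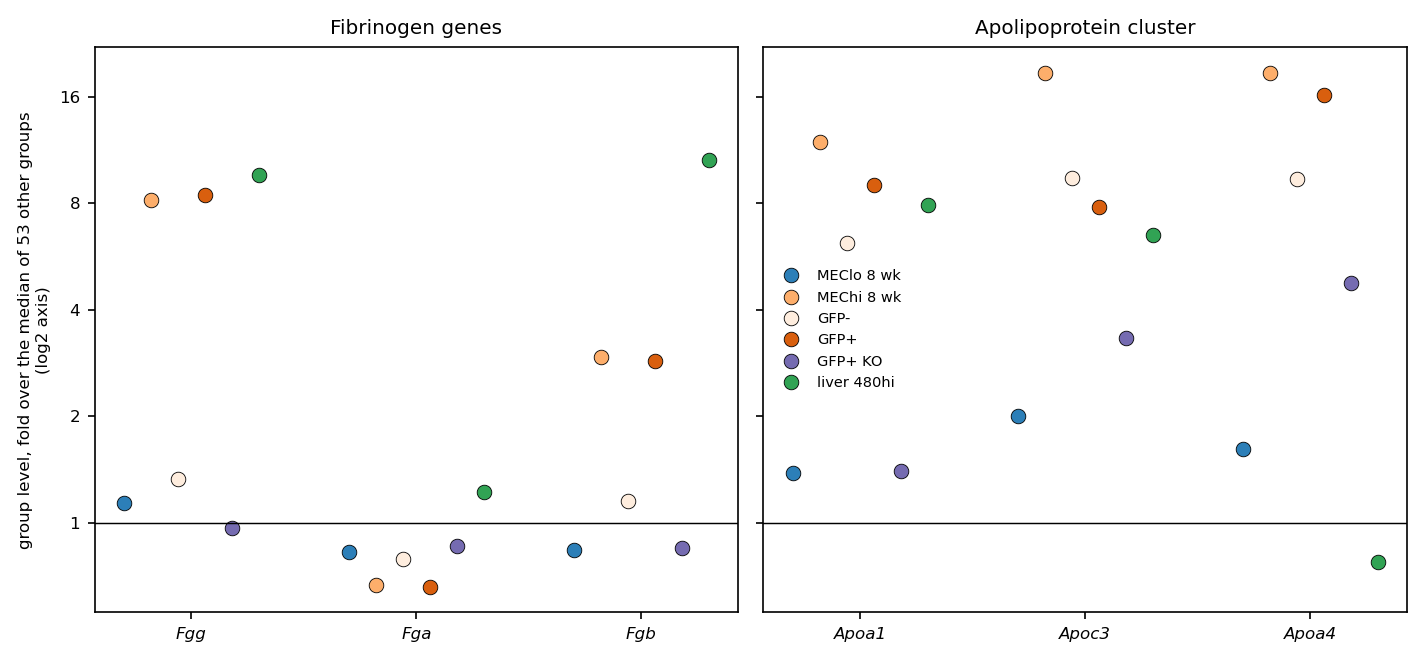
Level of the 3 fibrinogen genes (left) and of Apoa1, Apoc3 and Apoa4 (right) in 6 groups, as fold over the median of the 53 other groups (log2 axis; the line marks 1); each point is a group mean of log2 values over 2 or 3 arrays. Fga lies below 1 in all 5 medullary groups while Fgg and Fgb are raised in high and GFP+ cells, and Apoa4 is raised in medullary cells but below 1 in liver macrophages.

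RefSeq promoter windows of 300 bases (250 before to 50 after the start, GRCm38.p6) were at hand for 8 of the 9 members, in 9 windows. They were searched on both strands for 2 short motifs, CAAAGT, a core of HNF4 sites, and TATAAA, known from the TATA box. The first was in the window of Alb, 1 of 8 members, and in 14.4% of all 32851 windows. The second was in those of Apoa2, Apob and Tdo2, 3 of 8 members, and in 13.6% of all; no 2 matches overlapped. The windows of Alb, Apob and Tdo2 are shown. These genes were high in GFP+ and lower in KO, as were Apoa1 and Fgb, which are not shown. All 3 windows shown hold a match, so they do not tell how common the motifs are among the members. Capitals mark the matches, all on the strand printed. The match begins at position -182 in Alb (chr5:90460620-90460919, + strand), -60 in Apob (chr12:7977427-7977726, + strand) and -229 in Tdo2 (chr3:81975679-81975978, - strand), and it shows only that these letters are present.
Alb promoter: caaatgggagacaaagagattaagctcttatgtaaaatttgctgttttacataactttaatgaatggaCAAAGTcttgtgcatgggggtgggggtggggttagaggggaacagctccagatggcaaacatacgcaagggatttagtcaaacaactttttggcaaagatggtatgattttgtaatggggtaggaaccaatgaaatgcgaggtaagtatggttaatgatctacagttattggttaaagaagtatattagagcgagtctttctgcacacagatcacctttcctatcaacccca
Apob promoter: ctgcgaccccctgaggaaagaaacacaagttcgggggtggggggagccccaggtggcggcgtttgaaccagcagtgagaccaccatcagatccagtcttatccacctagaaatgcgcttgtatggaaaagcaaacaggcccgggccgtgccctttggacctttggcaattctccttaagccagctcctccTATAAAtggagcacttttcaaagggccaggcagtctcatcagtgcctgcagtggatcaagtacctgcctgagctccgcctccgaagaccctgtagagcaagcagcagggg
Tdo2 promoter: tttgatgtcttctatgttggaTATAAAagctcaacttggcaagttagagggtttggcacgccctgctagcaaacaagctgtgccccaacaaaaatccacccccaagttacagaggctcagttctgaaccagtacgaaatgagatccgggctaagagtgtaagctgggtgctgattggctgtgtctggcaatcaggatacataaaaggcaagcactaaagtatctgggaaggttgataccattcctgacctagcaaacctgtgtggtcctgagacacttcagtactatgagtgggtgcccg

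Transcription factors of liver and gut were read as a second list, of which 16 of 18 have a probe set. Limma without filter called 1 higher and 6 lower in GFP+ than in GFP-, and 3 lower in KO than in GFP+, against the shares of all probe sets given above. The gut factor Cdx1 was higher in GFP+ by 1.20 ± 0.14 (SE, limma adjusted p = 7e-05), while Prox1 (-1.80 ± 0.16, 1.3e-05), Cebpa (-1.19 ± 0.15, 0.00012) and Foxa1 (-1.03 ± 0.18, 0.00089) were lower. With KO, Hnf4a fell by 0.51 ± 0.10 (limma adjusted p = 0.0043), from 153.8 to 108.0, where the median of the other groups was 128.0. Creb3l3 (-0.36 ± 0.09, limma adjusted p = 0.02) and Foxa1 (-0.61 ± 0.18, 0.035) were the other 2, and lost their calls without some arrays: Creb3l3 without KO replicate 1 or 3 or GFP+ replicate 6 or 8 (0.056 to 0.075), Foxa1 without KO replicate 2 or 3 or GFP+ replicate 6 or 8 (0.066 to 0.14). Creb3l3 also lost its call in a fit of all arrays (0.06) and with quantile normalization (0.05), and Foxa1 with 32 added to the intensity (0.054). Hnf4g, a relative of Hnf4a, averaged 439.9 in high and 80.8 in low medullary cells of 8 weeks, 470.0 in GFP+ and 359.4 in KO, while liver macrophages (32.1 and 31.1) lay at the median of other groups (34.4). Of 14 enterocyte genes, 5 were called higher and 3 lower in GFP+, and 7 lower in KO, among them Alpi, the intestinal alkaline phosphatase (-2.08 ± 0.12, limma adjusted p = 4.5e-07).

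Liver macrophages are the other cells in which the members were high. Of the 9 members, 8 were at 2-fold or more over the median of other groups there, as were 7 in GFP+ or high medullary cells of 8 weeks, and all 7 were among the 8. The liver macrophage level, as the mean over both groups, was 21.0 times that of GFP+ for Alb, 4.15 times for Apoa2, 3.73 times for Fgb, 2.89 times for Ttr, 1.31 times for Ambp, 1.15 times for Apob, 0.889 times for Apoa1 and 0.277 times for Tdo2. The members thus did not keep 1 ratio between the 2 kinds of sample. Of the 52 hepatocyte genes, 36 reached 2-fold in liver macrophages and 20 in GFP+ or high medullary cells of 8 weeks. The 16 in both are 16 of 36 and 16 of 20. Of all 19752 genes, 8.29% reached 2-fold in 480hi and 8.86% in 480int, while the counts here take a gene that reached it in either group. No share over all genes is given for the overlap, and nothing is read from it.

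The 4 genes of the medullary side alone were Apoa4, Gys2, Saa1 and Crp. Among the 20 of the liver side alone was Ahsg, which encodes fetuin-A and was chosen here after its values were seen: it averaged 877.7 and 834.9 in liver macrophages and 45.4 in GFP+, with a median of 43.6 in other groups. Cyp2e1, a drug-metabolising enzyme also chosen in this way, was at 408.9 and 482.4 against 52.7. The source of these transcripts on the liver macrophage arrays was not tested.

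**Figure D4:**
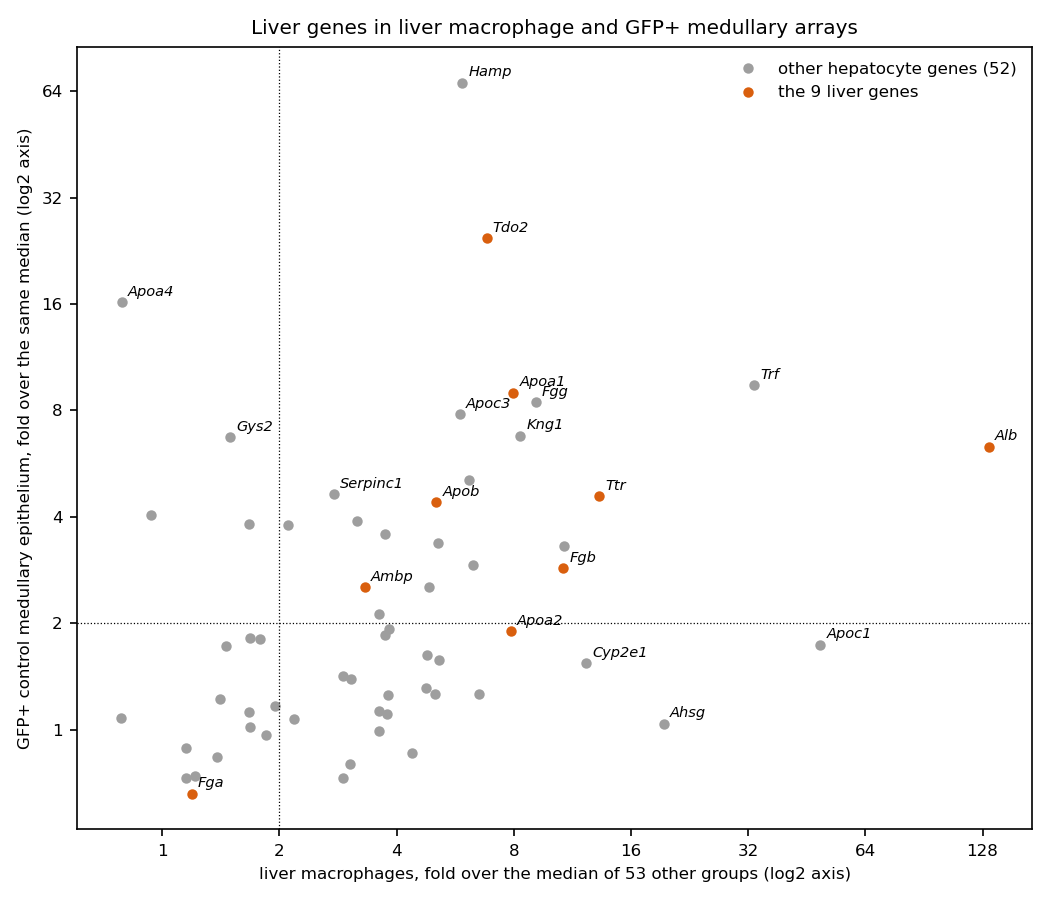
Fold over the median of the 53 other groups (both axes log2) in liver macrophages (mean of both groups, horizontal) and in GFP+ medullary cells (vertical) for the 9 members in orange and 52 other hepatocyte genes in grey; dotted lines mark 2-fold. Alb lies far to the right and Tdo2 high, Apoa4 and Gys2 are raised in medullary cells alone, and Ahsg and Cyp2e1 in liver macrophages alone.

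Within liver macrophages no member was called between the F4/80 high and intermediate cells: 0 of 9 were called by limma and 0 had an unadjusted p under 0.05, where 8.74% of all probe sets were called. The differences ran from -0.28 ± 0.18 for Apoa2 to 0.37 ± 0.33 for Tdo2 (SE, n = 3 per group). Tdo2 was at 203.2, 219.2 and 197.8 in 480hi and at 303.2, 107.8 and 126.0 in 480int. Without 480int replicate 1 its difference was 0.83 (limma adjusted p = 0.0056). Kupffer cell markers summed to 27269 to 27849 in 480hi and 17889 to 18688 in 480int, and endothelial markers to 14646 to 16106 and 20422 to 21659.

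The remaining thymic contrasts gave few calls among the members. Low medullary cells of 8 and 5 weeks had 0 of 9 called by limma and 0 with an unadjusted p under 0.05, where 0.393% of probe sets were called; the largest difference was -0.48 ± 0.29 for Ttr (SE, n = 2 per group). Sca1+ and high cortical cells of 8 weeks had 0 of 9 called and 0 with an unadjusted p under 0.05, where 8.55% were called. Between Sca1+ and low medullary cells of 5 weeks, Ambp was the 1 member called, lower in Sca1+ by -0.63 ± 0.13 (SE, limma adjusted p = 0.015, unfiltered fit), where 2.92% of probe sets were called lower. Its values were 53.1 and 51.0 against 80.8 and 80.0. This call was lost without any 1 of the 4 arrays and in a fit of all arrays.

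Over the 22 thymic epithelial arrays, the members other than Fga followed one another: the median correlation of a member with the other 8 was 0.93 for Apob, 0.92 for Alb, 0.91 for Fgb, 0.90 for Apoa2, 0.89 for Tdo2, 0.88 for Apoa1, 0.80 for Ambp and 0.72 for Ttr, and -0.80 for Fga. These correlations describe shared groups, arrays and normalization and carry no test. The members were also selected on their level in medullary groups among these arrays, so likeness between them follows in part from that choice. The genes with the most similar pattern over these arrays were Nts for Alb (r = 0.99), Rarres1 for Tdo2 (0.991), Sult1e1 for Fgb (0.988), Ctrb1 for Apoa1 (0.986), Clec12a for Apob (0.985), Cyp11a1 for Apoa2 (0.979), Klk1b11 for Ttr (0.974), Trpa1 for Ambp (0.939) and Olfr866 for Fga (0.92). Over the 65 group means, which include the liver macrophages, they were mostly liver genes: Fgb for Alb and Alb for Fgb (0.967), Kng1 for Apob (0.962) and for Ambp (0.866), Apoc3 for Apoa1 (0.945), Tat for Apoa2 (0.935), Ces1c for Ttr (0.934), Hal for Tdo2 (0.874) and Unc13a for Fga (0.876).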

How the data were processed

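The labels' protocols describe RNA in TRIzol, labelled with biotin for Affymetrix arrays. The table the authors deposited holds linear intensity values from Affymetrix Power Tools with RMA, per the submitters' processing notes, with version and build not given in the sources used here. It gives 1 value for each of 24922 probe sets and each array, and log2 was taken here. By the platform annotation, 21425 probe sets carried 1 symbol, 1399 several and 2098 were not listed. No 2 arrays were identical.

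Comparisons used limma 3.58.1 (lmFit and eBayes, two-sided) in R 4.3.3, with 3 fits: 9 arrays of the GFP-sorted groups, 13 of the other thymic groups and 6 of liver macrophages. Groups of 2 borrow their spread from the fit. A probe set was kept where at least 1 group averaged at or above the overall median, adjustment was by Benjamini-Hochberg across every probe set kept, and a call is an adjusted p under 0.05. In the GFP and thymic fits 7 of 9 members passed, several only through a group where they were high, so every member and list value, count and p-value comes from the fit without filter, and the filtered fit gives only counts of probe sets. Members and lists were chosen with earlier results of these data known. High against low medullary cells, GFP+ against GFP- and KO against GFP+ were to be tested, but they share arrays that chose the members, so the members have no test there. The named genes of a list are up to 4 called genes with the smallest adjusted p per comparison and the 4 with the highest mean in GFP+; exceptions are marked. Some listed genes are not reported here.

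GFP+ and GFP- arrays share replicate numbers 6, 7 and 8, whose deviations correlated (r = 0.52, 0.47 and 0.20), as did those of liver macrophages (0.47, 0.13 and 0.18), which is taken as pairing by these data. The fits as designed hold no replicate block, so the p-values and counts given for these contrasts ignore that pairing unless the block is named. Tested on simulated data, the GFP+ against GFP- fit recovered 37.3% of changes of 0.5 on the log2 scale, 83.6% of 1 and 95.5% of 2, with 6 false calls. Recovery of changes of 0.5 and 1 was lower in the contrasts where members were tested, while for changes of 2 it was 95.5% to 98.5% there. For changes of 0.5 it was 4.48% in both Sca1+ contrasts, 11.9% for 8 against 5 weeks and 14.9% for liver macrophages. For changes of 1 it was 74.6% (Sca1+ medullary), 61.2% (Sca1+ cortical), 73.1% and 71.6%. Changes were put only into probe sets above the overall median and read in the filtered fit, so these rates are not those of the unfiltered member tests. The alternatives were no filter or a 75th percentile filter, quantile normalization, intensity plus 32, all arrays in a single fit, trend and robust variances, replicate number as a block, the second Fga probe set and each array left out.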

Additional observations from a re-analysis of the deposited data

Results flagged for a closer look

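Groups of 4 or more arrays were screened for a single array far from the others, with 18 tests, of which chance flags about 1 in 20. Fga stood out on replicate 5 of the peritoneal mast cells (MC.PC), at 78.4 against 63.9 on the next array. No tested comparison above uses that group, but it is among the 53 other groups that give the medians and folds.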

How the results depend on the processing

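No called value changed sign under an alternative in which it was tested; uncalled differences near 0 did, as for low medullary cells of 8 against 5 weeks with quantile normalization (Apob -0.04 to 0.03, Fgb -0.02 to 0.05, Ambp -0.01 to 0.04), and the second Fga probe set turned the untested Fga values given above. With a 75th percentile filter the number of probe sets called was 4134 (GFP+ against GFP-, 6865 in the fit as designed), 1412 (KO, 2647), 3348 (high against low medullary cells, 5754), 573 (Sca1+ against low medullary cells, 938) and 1299 (Sca1+ against high cortical cells, 1994), as fewer probe sets were tested; without filter it was 4326 for KO. With all arrays in a single fit it was 295 for low medullary cells of 8 against 5 weeks (85) and 1523 for Sca1+ against low medullary cells; the cause was not tested. Leaving out 1 array at a time gave 5829 to 6463 probe sets for GFP+ against GFP-, 1685 to 2416 for KO, 3913 to 4501 for high against low, 29 to 134 for 8 against 5 weeks, 471 to 1231 for Sca1+ against low medullary, 1014 to 3113 for Sca1+ against high cortical cells and 1564 to 2820 for liver macrophages (2619 in the fit as designed). Of the hepatocyte genes, an array left out gave 24 to 27 higher and 3 to 5 lower in GFP+, and 25 to 27 lower and 0 to 1 higher with KO. Of the factors, it gave 1 to 2 higher in GFP+ and, with KO, 0 to 1 higher and 1 to 3 lower; with all arrays in a single fit 2 were higher in GFP+ and 1 with KO. Members lower in Sca1+ medullary cells were 0 with all arrays and 0 with any array left out; in liver macrophages 0 to 1 were higher with an array left out. With the replicate block, 7807 probe sets were called for GFP+ against GFP- and 3175 for liver macrophages, and the block changed no member's call in liver macrophages; of the listed genes named, it changed the GFP+ calls of Hpx (adjusted p = 0.073) and Hamp (0.026) in limma. For groups of 2 the numbers are not known to pair arrays. Deviations correlated at r = -0.1 for high against low, -0.14 for 8 against 5 weeks, 0.33 for Sca1+ medullary and 0.59 for Sca1+ cortical cells. The block gave 5863, 90, 940 and 2073 in the same order, and crossed numbers gave 92 for 8 against 5 weeks. KO shares no replicate number with its control. In thymic groups the means of Fga and Ambp lie below the median of all intensities, where array signal limits what can be resolved. In KO cells the other members except Apoa1 also lie below it, as Alb (28.8), Fgb (47.5) and Tdo2 (69.8) against a median of 140.5. In GFP- cells Alb, Apob, Fgb and Tdo2 do. The sizes of their differences with KO or GFP- on 1 side are limited in the same way. In the low medullary, Sca1+ and high cortical groups the means of the other members also lie below the median, except Apoa1 in the medullary groups. In Sca1+ cortical and high cortical cells Apoa1 averaged 130.9 and 113.8, against a median of 138.4 over the arrays of that fit.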
